A study of Mus musculus with 15 samples.

Results

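The late step of OCT4 loss in O4AID embryonic stem cells (ESCs) was read from 2 of the 15 RNA-seq libraries of the series, those made after 10 h and 24 h in the auxin indole-3-acetic acid (IAA). The 2 libraries were identified by their labels, and every gene counted in them was considered. O4AID is a ZHBT line of strain 129SV that is Oct4-/- and carries the transgenes TetOFF Oct4, CAG Oct4AID and CAG Tir1. All O4AID cells, at every time, therefore lack endogenous *Pou5f1* function and were kept in 1 µg/ml doxycycline, which holds the wild-type TetOFF transgene off. They live on OCT4 fused to an auxin-inducible degron, driven by the constitutive CAG promoter, with the rice receptor Tir1 from a second CAG transgene, and the sources used here do not say whether they are 1 clone. They were cultured in N2B27 with 1 µM PD03, 3 µM Chiron and mLIF, and IAA was given at 500 µM. The comparison cells, CreER ESCs (genotype Oct4Fl/-; CAG CreER, Mixed 129SV C57BL/6), shared that medium and lost the floxed *Pou5f1* allele after 500 nM 4OHT, with 2 replicate libraries at each of 0, 12, 18, 24 and 36 h. The question asked of the late step was which genes still moved after the fusion protein had already been exposed to IAA for 10 h.

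OCT4 is a POU-domain transcription factor that, with SOX2, holds the gene network of naive pluripotency in place. ESCs that lose it leave self-renewal and move towards trophectoderm, the outer epithelium of the blastocyst that forms the placenta. Such cells lose the naive factors, gain simple keratins and junction proteins, and later make placental products. IAA is a plant hormone, but indoles can also bind the aryl hydrocarbon receptor (AhR) of mammalian cells, which switches on xenobiotic-metabolising enzymes of the CYP1 family. No IAA-treated library of cells without the degron was analysed here, so an effect of IAA itself and an effect of OCT4 loss cannot be told apart in these O4AID libraries. The paper's own control was RT-qPCR of eGFP-AID ESCs given IAA. From it the paper attributed neither the loss of pluripotency expression nor the gain of trophectoderm markers to IAA. There was 1 library at each time, so no p-value was computed, and every difference compares those libraries, not the conditions. In whole-culture RNA, a change in the number of cells of a type and a change in RNA per cell cannot be told apart either.

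Levels are given as counts per mega-count (CPM) after TMM scaling, which corrects for depth and composition. A difference is the log2 ratio of CPM + 1 at 24 h to CPM + 1 at 10 h, with its 95% exact counting interval in brackets, and it understates the change of genes near 1 CPM. A gene was compared if its mean over both libraries was at least 1 CPM, and was called if it differed at least 2-fold with an interval clear of 0. The words rose and fell are kept for genes that were called. Counted reads came to 40.5 M (mega) in the 10 h library, 46.4 M in the 24 h library and 41.1 to 48.7 M in the other O4AID libraries. The mitochondrial rRNA genes took 6.91% of reads at 10 h and 9.68% at 24 h, against 6.02 to 6.65% at the 3 earlier times, and their part in the results was not tested.

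Of 13815 genes compared, 375 (2.71%) were called between 10 h and 24 h. The 215 genes that rose were 1.56% of those compared and the 160 that fell were 1.16%. The median difference over all genes compared was -0.01 and the median absolute difference was 0.20. A 4-fold difference was passed by 20 genes that rose and 4 that fell. The genes called were mostly of modest level: 80 of the rises and 63 of the falls had a mean of at least 10 CPM, and 45 of the rises stood under 1 CPM at 10 h. The same rule called 15 genes (0.11%) between 0 h and 1.5 h, 87 (0.636%) between 1.5 h and 6 h and 21 (0.153%) between 6 h and 10 h. Over 10 h against 0 h as a whole it called 361 genes (2.63%), 190 higher and 171 lower, close to the share of the late step. Neighbouring steps share a library and differ in length, so these counts stand side by side and were not tested against each other. Between the 2 replicates of each CreER time, the rule called between 0 and 4 genes of 14970 to 15252.

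**Figure D1:**
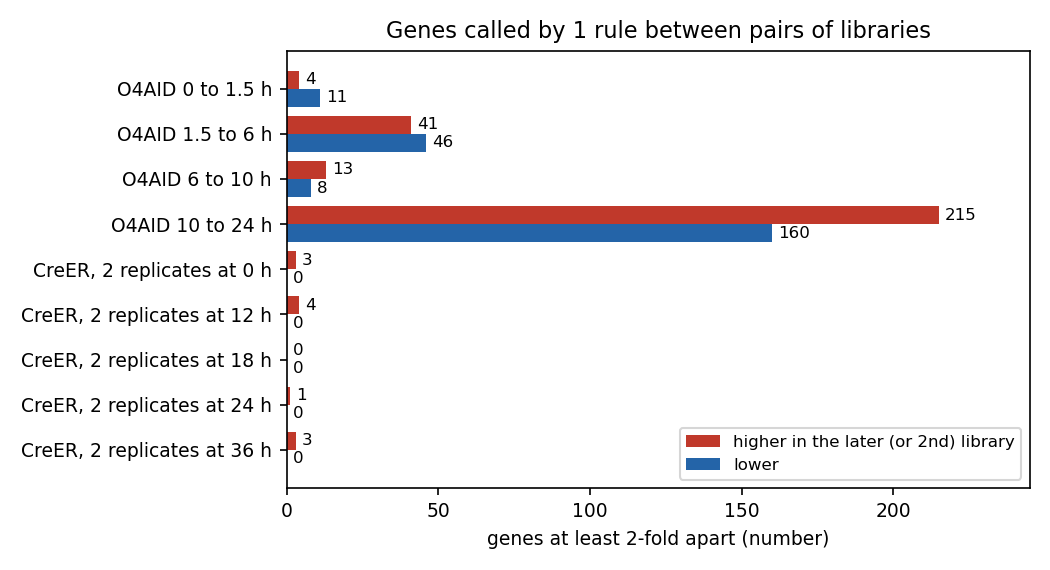
Number of genes at least 2-fold apart (horizontal axis) between neighbouring O4AID libraries and between the 2 replicates of each CreER time, with red bars for genes higher in the later or second library and blue bars for lower. The last O4AID step has 215 and 160 genes, and the CreER replicate pairs have at most 4.

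**Figure D2:**
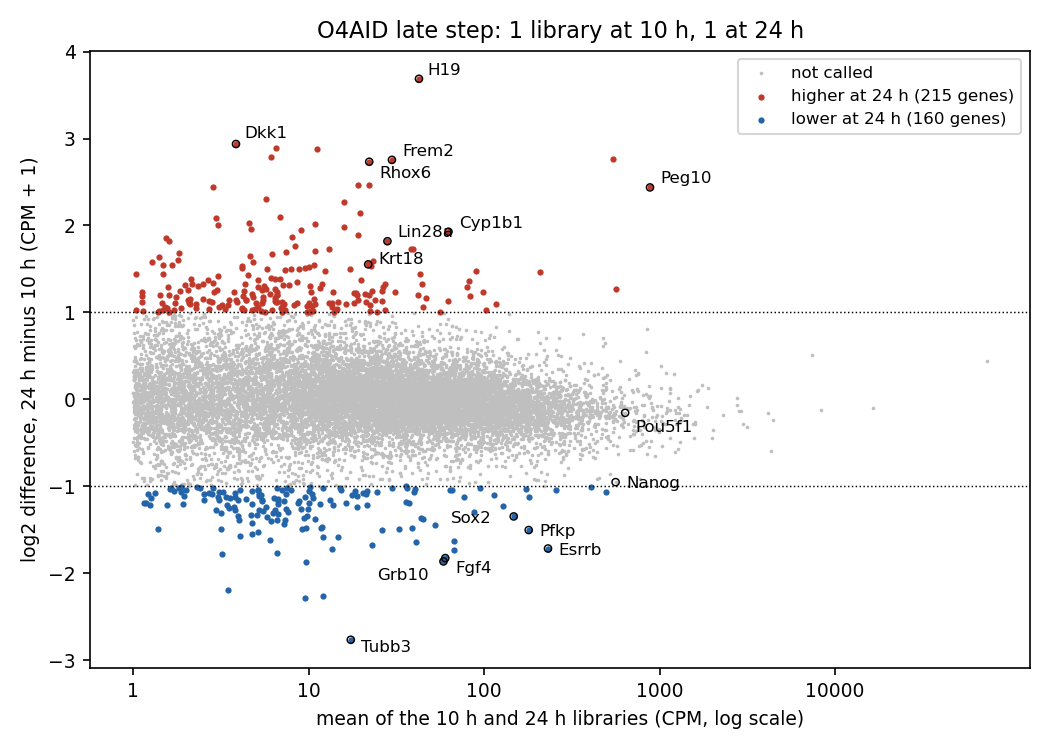
Log2 difference between the 24 h and 10 h O4AID libraries (vertical axis) against the mean level in CPM (horizontal axis, log scale), 1 point a gene, dotted lines at 2-fold. *H19* and *Peg10* stand out above and *Tubb3* and *Esrrb* below, while *Pou5f1* lies near 0.

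*Pou5f1* mRNA is no check of the depletion, since the degron acts on the protein and the transgene goes on being transcribed. *Pou5f1* (chromosome 17) was at 717, 816, 684, 670.0 and 601 CPM at 0, 1.5, 6, 10 and 24 h, a late difference of -0.16 (-0.18 to -0.13). The marker sets described the culture as follows. The summed level of 7 ESC markers was 4239.5, 2180.4 and 1015 CPM at 0, 10 and 24 h, and none of the 7 was at or under 3 counts. The summed level of 8 trophectoderm markers was 25.3, 43.2 and 92.5 CPM at the same times. At 10 h and 24 h most of that sum was the keratins *Krt7*, *Krt8* and *Krt18*, the only 3 of the 8 that rose. Primitive endoderm markers, 5 in number, summed to 9.07, 21.4 and 32.0 CPM at 0, 10 and 24 h, and 3 neural markers to 51.6, 74.3 and 69.6 CPM. The 3 mesoderm markers summed to 1.20 CPM at 10 h and 1.60 at 24 h, and the 2 blood markers were at or under 3 counts at both times. Fibroblast markers summed to 55.1 CPM at 10 h and 38.5 at 24 h, nearly all of it *Pdgfrb*. The ESC marker sum was thus lowest at 24 h. It was above the trophectoderm marker sum, but the sums cover different genes and do not measure shares of cells.

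Falls included naive pluripotency factors. Of 13 listed and compared, *Sox2*, *Zfp42*, *Nr0b1* and *Esrrb* fell (30.8%, beside 1.16% of all genes) and none rose. The list median was -0.61, beside -0.01 for all genes. *Esrrb*, the orphan nuclear receptor that sustains self-renewal, was at 763, 653, 356, 355 and 107 CPM at the 5 times. It was flat between 6 h and 10 h and then fell by 1.72 (-1.76 to -1.67), 3.31-fold on the CPM scale. *Zfp42*, the naive marker REX1, showed the same pause, at 383, 363, 149, 155 and 72.0 CPM, and differed by -1.10 (-1.16 to -1.04) in the late step. *Sox2*, the partner of OCT4 at composite sites, held at 237, 235 and 212 CPM from 1.5 h to 10 h and was at 82.8 CPM at 24 h, a difference of -1.35 (-1.40 to -1.29). In this group the 24 h library was the lowest of the 5 for every gene that fell. *Nr0b1*, the nuclear receptor DAX1, went from 12.6 to 4.94 CPM, a difference of -1.19 (-1.39 to -1.0).

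The other 9 naive factors were not called, and all 9 were lower at 10 h than at 0 h. *Tfcp2l1*, a LIF-responsive factor, was at 1598, 677 and 501 CPM at 0, 10 and 24 h, and its late difference was -0.43 (-0.46 to -0.41). *Tet2*, a 5-methylcytosine dioxygenase from another list, was similar, with levels of 714, 185, 212 and 192 CPM at 0, 6, 10 and 24 h and a late difference of -0.15 (-0.19 to -0.10). *Tbx3* and *Klf5* were at 67.0 and 43.8 CPM at 10 h and stood slightly above that at 24 h, with differences of 0.20 (0.13 to 0.27) and 0.10 (0.01 to 0.18). *Nanog*, the homeodomain factor of the naive network, lay just short of the 2-fold threshold, at 740.3 CPM at 10 h and 382 at 24 h, a difference of -0.95 (-0.98 to -0.93). *Klf4*, a Krüppel-like factor, and *Prdm14*, a repressor of differentiation genes, went from 45.1 to 28.3 CPM and from 25 to 16.0 CPM, differences of -0.65 (-0.75 to -0.56) and -0.61 (-0.74 to -0.48). *Sall4*, *Klf2* and *Nr5a2*, the remaining factors, differed by -0.20, -0.19 and -0.21. The list's median was -1.10 between 0 h and 6 h, -0.05 between 6 h and 10 h and -0.61 in the late step.

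The sequence just before the *Zfp42* start is shown because *Zfp42* was the only factor, of the 9 on that list with a promoter window, to hold an octamer, the element bound by POU-domain proteins. It is RefSeq sequence of GRCm38.p6, chr8:43307010-43307259 on the minus strand, 5′ to 3′, with the octamer in capitals (searched as ATGCAAAT on both strands).
Zfp42: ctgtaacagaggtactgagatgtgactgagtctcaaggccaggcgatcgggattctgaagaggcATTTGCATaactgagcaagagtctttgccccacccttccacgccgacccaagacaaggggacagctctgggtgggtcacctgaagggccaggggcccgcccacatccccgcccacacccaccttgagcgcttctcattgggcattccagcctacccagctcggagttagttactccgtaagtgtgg

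The match begins 186 bases before the start. The element was found in 1.60% of 32851 promoter windows of 250 bases, in 6 of the 108 genes that fell and had a window (5.56%), in 2 of the 164 that rose (1.22%) and in 1.51% of the genes compared that had one. The 6 were *Pipox*, *Hapln3*, *Zfp42*, *Gm20939*, *Sash3* and *Spp1*, and the 2 were *Patj* and *Tent5a*. A match is a description of letters, not of binding.

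Among 14 effectors restricted to ESCs, *Fgf4*, *Dppa5a*, *Tcl1*, *Spp1* and *Pecam1* fell and *Lin28a* rose (42.9% called, beside 2.71% of all genes). The median was -0.70. *Fgf4*, the fibroblast growth factor that ESCs secrete and that drives their exit from the naive state, was at 229, 166, 123, 94.3 and 25.9 CPM. It was lower in each library than in the one before, and its late difference was -1.83 (-1.92 to -1.74). *Tcl1*, an AKT co-activator, went from 7.59 to 1.93 CPM, a difference of -1.55 (-1.79 to -1.31). *Pecam1*, the adhesion molecule CD31, went from 77.0 to 27.7 CPM, a difference of -1.44 (-1.53 to -1.35). *Dppa5a* and *Spp1* (osteopontin) fell by 1.07 (-1.09 to -1.04) and 1.04 (-1.08 to -1.0).

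*Lin28a* went the other way from the rest of that list. This RNA-binding protein, which blocks maturation of let-7 microRNAs and rises as cells leave the naive state, was at 2.37, 2.22, 4.77, 11.9 and 44.4 CPM. Its late difference was 1.82 (1.69 to 1.95). *Dppa2* and *Dppa3*, other members, differed by 0.05 (-0.03 to 0.13) and -0.08 (-0.25 to 0.09), and *Tdgf1*, the NODAL co-receptor, differed by 0.21 (0.12 to 0.30).

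**Figure D3:**
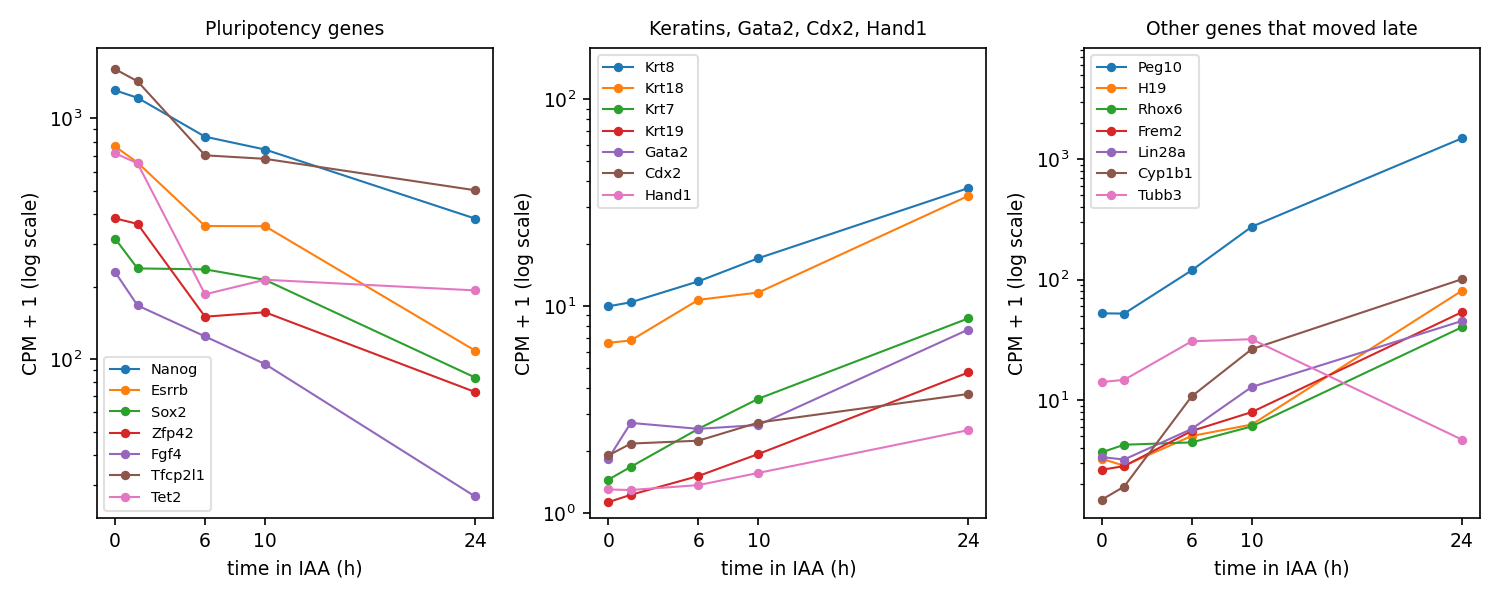
Level in CPM + 1 (vertical axes, log scale) in each O4AID library against hours in IAA (horizontal axes), 1 library a time. *Esrrb* and *Zfp42* are level between 6 h and 10 h and lower at 24 h, *Krt8* and *Krt18* climb to 36.2 and 33.1 CPM, and *Tubb3* goes from 31.1 to 3.71 CPM.

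Of 16 trophectoderm transcription factors listed, 13 were compared, 1 rose (7.69%, beside 1.56% of all genes) and none fell, with a median of 0.17. The riser was *Gata2*, a GATA factor of trophoblast, at 0.833, 1.72, 1.55, 1.66 and 6.70 CPM, a difference of 1.53 (1.27 to 1.79). *Cdx2*, the caudal factor that specifies trophectoderm, was at 1.73 CPM at 10 h and 2.76 at 24 h, from 71 and 133 reads, a difference of 0.46 (0.17 to 0.74). *Hand1*, needed for trophoblast giant cells, was at 0.562 and 1.51 CPM, a difference of 0.69 (0.37 to 0.96). *Eomes*, *Tfap2c* and *Tead4*, which also act in early trophectoderm, differed by -0.16 (-0.35 to 0.02), -0.51 (-0.57 to -0.45) and -0.57 (-0.70 to -0.45). *Cdx2*, *Hand1*, *Elf5* and *Gata3*, another GATA factor of the lineage, were all under 3 CPM at 24 h. *Gcm1*, the factor of syncytiotrophoblast, had 4 reads at 10 h and 46 at 24 h and was below the filter.

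Of 14 epithelial keratin and junction genes, 13 were compared, 5 rose (38.5%, beside 1.56% of all genes), none fell, and the median was 0.66. *Krt18* and *Krt8*, the paired simple-epithelium keratins, were at 10.6 and 16.0 CPM at 10 h and at 33.1 and 36.2 CPM at 24 h. Their differences were 1.55 (1.41 to 1.70) and 1.13 (1.00 to 1.25). *Krt7* was at 0.448, 0.672, 1.55, 2.56 and 7.72 CPM, and *Krt19*, which passed the filter only through the 24 h library, at 0.128, 0.224, 0.508, 0.928 and 3.78 CPM. Both were higher in each library than in the one before and rose late by 1.29 (1.05 to 1.53) and 1.31 (1.02 to 1.58). *Cldn6*, a tight-junction claudin of early epithelia, rose by 1.29 (1.16 to 1.41), from 15.1 to 38.2 CPM. *Cdh1*, which ESCs already express as E-cadherin, differed by 0.12 (0.08 to 0.16).

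Of 12 transport and surface genes of trophectoderm, 11 were compared, *Tmprss2* rose and *Atp1b1* fell (18.2% called, beside 2.71% of all genes), with a median of 0.01. *Tmprss2*, a membrane serine protease, was at 0.256, 1.03, 2.93, 6.57 and 32.5 CPM, a late difference of 2.15 (1.98 to 2.32). *Atp1b1*, the beta subunit of the sodium pump that inflates the blastocyst, was at 147, 233 and 114 CPM at 0, 10 and 24 h. That late difference of -1.03 (-1.08 to -0.98) took it below its 0 h level. Its call was lost under total-count scaling (-0.988) and against the 6 h library (-0.881). *Atp1b1* overlaps *Nme7* on the other strand (1450 reads at 10 h and 1802 at 24 h). *Slc2a1*, the glucose carrier GLUT1, traced the same arch, at 182, 382 and 221 CPM at 0, 10 and 24 h, without being called (-0.79, -0.82 to -0.75). *Enpep*, an aminopeptidase, had 2 reads at 10 h and 65 at 24 h and stayed below the filter.

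Placental products formed 2 classes. *Peg10*, *Rhox6* and *Rhox9* were the only 3 of 12 listed that reached the filter, and all 3 rose, beside 1.56% of all genes. *Prl3d1*, *Prl3b1*, *Tpbpa* and *Ctsq*, made by mature trophoblast, had 0 reads at both times, and 3 reads in the 24 h library would be 0.0622 CPM. *Peg10*, a retrotransposon-derived imprinted gene needed for placental growth, was at 51.6, 51.3, 119, 274 and 1488 CPM. It was higher in each of the last 3 libraries than in the one before, and its late difference was 2.44 (2.41 to 2.47). *Rhox6* and *Rhox9*, reproductive homeobox genes of the X chromosome, were at 5.05 and 1.90 CPM at 10 h and at 39.2 and 20.4 CPM at 24 h. Their differences were 2.73 (2.55 to 2.91) and 2.88 (2.65 to 3.11). *Plac1*, *Sct*, *Lcn2*, *Mmp9* and *Prl2c2* were below the filter.

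Imprinted genes included *H19*, whose log2 ratio of CPM + 1 was the highest of the 13815 genes compared. On plain CPM, *Dkk1* (62.2-fold), *C3* (28.0-fold) and *Igf2* (15.6-fold), with 5, 8 and 32 reads at 10 h, exceeded its 15.1-fold. *Dkk1* and *C3* also exceeded *H19* with a 0.1 CPM pseudocount. Of 15 listed, 13 were compared, 4 rose and 1 fell (38.5% called, beside 2.71% of all genes), with a median of 0.65. *Peg10* is also on the placental list, and *Igf2* passed the filter only through the 24 h library. *H19*, a maternally expressed non-coding RNA, was at 2.26, 1.86, 4.04, 5.27 and 79.8 CPM. Its late difference was 3.69 (3.52 to 3.86), 15.1-fold, after a range of 1.86 to 5.27 CPM over the first 4 libraries. *Igf2*, the growth factor from the other parental allele of the same locus on chromosome 7, was at 0.781 CPM at 10 h and 12.2 at 24 h, a difference of 2.89 (2.63 to 3.12). *Phlda2*, a maternally expressed brake on placental growth, rose by 1.18 (0.94 to 1.41), from 3.00 to 8.05 CPM. *Grb10*, an adaptor that restrains insulin and IGF signalling, was the member that fell, at 121, 106, 108, 92.6 and 24.7 CPM and by 1.86 (-1.96 to -1.77). *Sgce*, the neighbour of *Peg10* in its imprinted cluster on chromosome 6, went from 23.1 to 38.6 CPM and was not called (0.72, 0.61 to 0.83). Allelic origin was not measured.

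**Figure D4:**
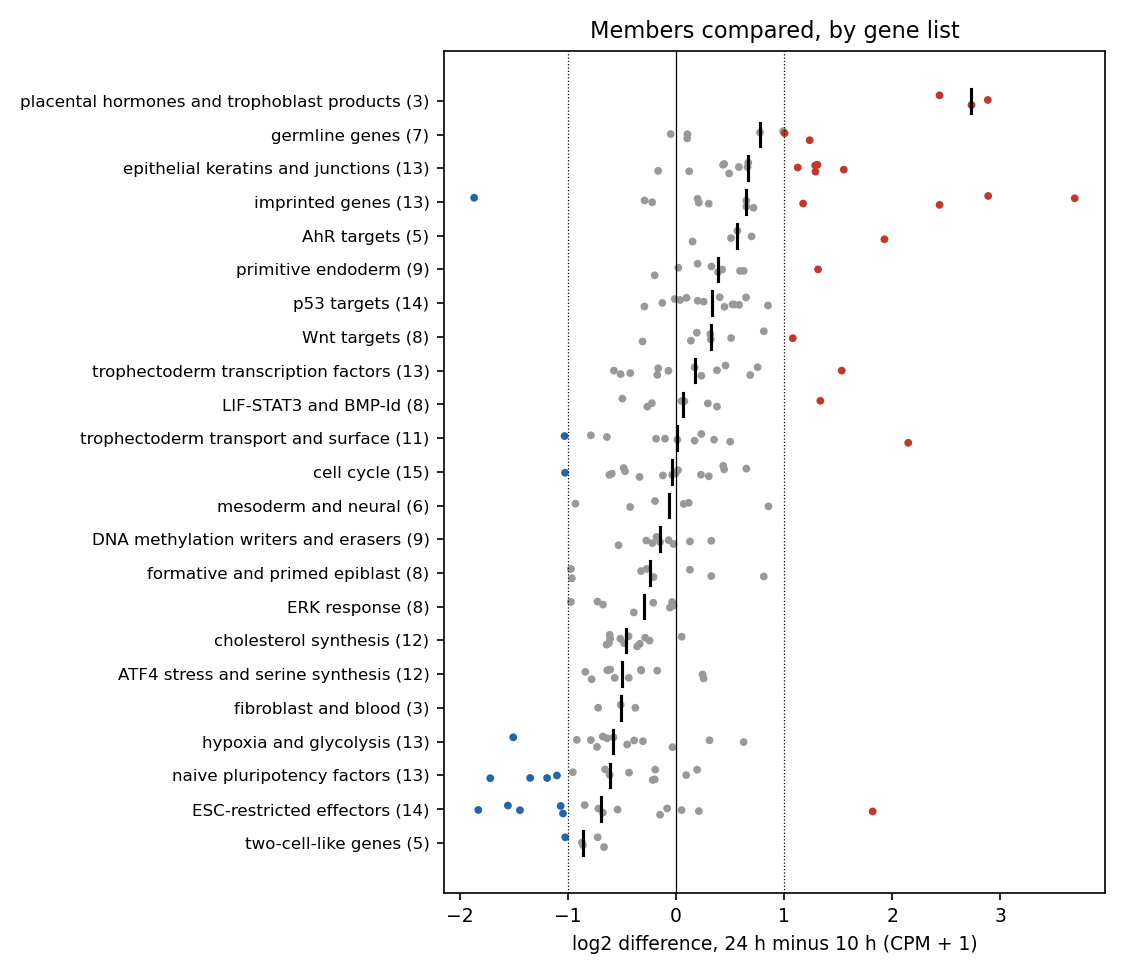
Log2 difference of each compared member (points, horizontal axis) for 23 gene lists (vertical axis, members compared in brackets), with the list median as a bar and dotted lines at 2-fold. Red and blue points were called, and the imprinted list spans from -1.86 for *Grb10* to 3.69 for *H19*.

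By the naming rule, the 12 largest protein-coding rises were *Dkk1*, *Igf2*, *Rhox9*, *Gbp2b*, *Frem2*, *Rhox6*, *Sprr2a1*, *Vnn1*, *C3*, *Peg10*, *Gbp2* and *Sprr2a2*. *Dkk1*, a secreted Wnt antagonist, had 5 reads at 10 h and 366 at 24 h (0.122 and 7.59 CPM), after 0.320, 0.202 and 0.242 CPM at the earlier times. Its difference of 2.94 (2.72 to 3.06) followed 4 libraries under 1 CPM. *C3*, the central complement component, had 8 reads at 10 h and 264 at 24 h, a difference of 2.44 (2.20 to 2.60). *Frem2*, an extracellular matrix protein of epithelial basement membranes, was at 1.64, 1.84, 4.55, 6.96 and 52.7 CPM, a difference of 2.75 (2.60 to 2.91). *Vnn1*, a pantetheinase, went from 5.20 to 33.1 CPM, a difference of 2.46 (2.28 to 2.64).

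The remaining large rises belong to gene families. *Sprr2a1* and *Sprr2a2*, cornified-envelope proteins, differed by 2.47 (2.30 to 2.64) and 2.27 (2.08 to 2.45), and *Gbp2b* and *Gbp2*, interferon-inducible guanylate-binding proteins, by 2.79 (2.52 to 3.02) and 2.30 (2.04 to 2.55). Members of each family are close in sequence, and the gene models of the *Sprr2a* pair overlap, so the split of reads between partners is uncertain. The earlier libraries differed between the families: *Sprr2a1* climbed from 0.256 CPM at 0 h to 6.10 at 10 h, whereas *Gbp2* stayed between 0.403 and 1.27 CPM up to 10 h and was at 10.2 CPM at 24 h.

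The 12 largest falls were *Tubb3*, *Tlx2*, *Trpm1*, *Ncam1*, *Grb10*, *Fgf4*, *Aox3*, *Cd3d*, *Upp1*, *Sept1*, *Esrrb* and *Dner*. *Tubb3*, the class III beta tubulin of neurons, was at 13.1, 13.7, 29.8, 31.1 and 3.71 CPM. It was thus higher at 6 h and 10 h than at 0 h, and its late difference of -2.77 (-2.95 to -2.58) took it below the starting level. *Tlx2*, a homeobox factor of neural crest, followed a flatter course, at 13.6, 16.6 and 2.61 CPM at 0, 10 and 24 h, a difference of -2.28 (-2.49 to -2.07). *Trpm1*, a cation channel of melanocytes and retina, was lower in each library than in the one before, with 62.2, 20.6 and 3.51 CPM at 0, 10 and 24 h and a late difference of -2.26 (-2.46 to -2.06).

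The neural adhesion gene *Ncam1* went from 15.8 to 3.59 CPM, a difference of -1.87 (-2.07 to -1.67). *Dner*, a Notch-like neuronal receptor, was level between 30.4 and 35.5 CPM over the first 4 libraries and at 10.4 CPM at 24 h, a difference of -1.68 (-1.82 to -1.54). *Aox3* (aldehyde oxidase), *Cd3d* (a T-cell receptor chain), *Upp1* (uridine phosphorylase) and *Sept1* (a septin) fell by 1.72 to 1.77 and were lower at 10 h than at 0 h. *Sept1* overlaps the more abundant *Zfp553* on the other strand (3701 reads at 10 h and 2920 at 24 h). The strand setting of the counting was not given in the sources used here.

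Protein-coding genes made up 12509 of the 13815 compared, and 208 of them rose and 143 fell, beside 1.56% and 1.16% of all genes. Of the 23 called entries with a biotype other than protein-coding, 6 rose and 17 fell, and 1 further entry that rose had no biotype matched. The largest rise was *H19* and the largest fall the lincRNA *Gm33027*, at 6.32 CPM at 10 h and 0.602 at 24 h, a difference of -2.19 (-2.42 to -1.93). The nuclear rRNA entry *CT010467.1* was at 4642, 975, 235, 138 and 940 CPM in the 5 libraries. Ribosomal RNA had been depleted before these libraries were made, and the part of that step in this value was not tested.

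Over 6 h against 0 h, a comparison that shares no library with the late step, 8 of the 215 late rises had also risen (3.72%, beside 0.526% of all genes compared over 6 h), although 50 of them were too low to be compared there. The 8 were *Tmprss2*, *Timp3*, *Cyp1b1*, *Oasl2*, *Mmp15*, *Frem2*, *Sprr2a1* and *Peg10*. Of the 160 late falls, 13 had also fallen by 6 h (8.12%, beside 0.664% of all genes), among them *Esrrb*, *Zfp42*, *Nr0b1*, *C1ql2*, *Nmnat2* and *Jam2*. These were 11.1% of the early rises and 14.3% of the early falls. *Tubb3*, *Plk3*, *Aldh1a3*, *Kcna2* and *Sstr5* had risen by 6 h and then fell late, and *CT010467.1* had done the reverse. *Plk3*, a stress-responsive kinase, was at 21.8, 36.3, 60.4, 63.5 and 24.0 CPM and so was nearly back at its starting level. *Aldh1a3*, a retinaldehyde dehydrogenase, peaked at 21.7 CPM at 6 h and was at 5.75 CPM at 24 h. Genes in this paragraph outside the lists and the 24 largest changes were named after their values were seen.

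Targets of AhR were higher at 10 h than at 0 h already. Of 8 listed, 5 were compared, of which 1, *Cyp1b1*, rose, beside 1.56% of all genes, and none fell. The list median was 0.57 in the late step, 0.66 between 6 h and 10 h and 2.08 between 0 h and 6 h. *Cyp1a1*, a sensitive target, was at 0.704, 10.7, 74.1, 170.3 and 277 CPM. It was higher in each library than in the one before, but its late difference of 0.70 (0.66 to 0.74) stayed under 2-fold. *Cyp1b1* was at 0.491, 0.918, 9.76, 25.5 and 99.8 CPM, a late difference of 1.93 (1.83 to 2.02). *Ahrr*, the repressor that AhR induces against itself, and *Nqo1*, a quinone reductase, differed by 0.57 (0.46 to 0.68) and 0.51 (0.47 to 0.55). *Tiparp*, an ADP-ribosyltransferase that also limits AhR, differed by 0.15 (0.10 to 0.21). *Aldh3a1*, another classical target, had 44 reads at 10 h and 13 at 24 h and was below the filter. In CreER cells, which received no IAA, *Cyp1a1* was at 4.18 and 3.61 CPM in the 24 h libraries and at 3.64 and 3.62 CPM in the 36 h libraries. *Cyp1b1* was at 18.1 and 17.2 CPM at 24 h in CreER and at 23.6 and 24.6 CPM at 36 h. That was 0.46 on the log2 scale (adjusted p = 8.56e-05 by edgeR, SE 0.08), and the cause was not tested in either line. Of the 6 AhR targets tested in CreER, *Cyp1b1* and *Nqo1* (0.30, adjusted p = 0.000226) were higher and *Tiparp* (-0.16, adjusted p = 0.0134) was lower. Of all genes tested there, 8.13% were higher and 6.55% lower.

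The promoters of *Cyp1a1* and *Cyp1b1* are printed because each holds the core of the AhR response element near its start. They are RefSeq sequences of GRCm38.p6, chr9:57697363-57697612 on the plus strand for *Cyp1a1* and chr17:79715062-79715311 on the minus strand for *Cyp1b1*, 5′ to 3′. Capitals mark the core, searched as GCGTG on both strands.
Cyp1a1: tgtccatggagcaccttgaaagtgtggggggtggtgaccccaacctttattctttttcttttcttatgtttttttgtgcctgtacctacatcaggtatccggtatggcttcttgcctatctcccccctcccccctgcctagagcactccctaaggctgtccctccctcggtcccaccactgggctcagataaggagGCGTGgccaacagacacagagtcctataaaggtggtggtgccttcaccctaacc
Cyp1b1: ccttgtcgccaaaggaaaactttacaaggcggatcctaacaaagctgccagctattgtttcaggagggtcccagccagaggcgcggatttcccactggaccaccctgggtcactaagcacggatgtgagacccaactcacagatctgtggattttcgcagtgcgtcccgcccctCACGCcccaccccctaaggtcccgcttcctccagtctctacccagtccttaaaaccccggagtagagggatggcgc

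The core begins 54 bases before the *Cyp1a1* start and 76 bases before that of *Cyp1b1*. It is a short motif, present in 28.2% of the 32851 windows and in 50.5% of compared genes that have one, beside 44.5% of the genes that rose and 31.5% of those that fell. Of 7 AhR targets with a window, 4 held it: *Cyp1a1*, *Cyp1b1*, *Ahrr* and *Tiparp*. *Cyp1a2*, the CYP1 member below the filter, did not, nor did *Nqo1* and *Ugt1a6a*.

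The 3 metabolic lists had more members lower than higher at 24 h, and 1 of their 37 genes compared was called (2.7%, beside 2.71% of all genes). Of 13 hypoxia and glycolysis genes, *Pfkp* fell, none rose, 11 had a negative difference, and the median was -0.58. *Pfkp*, the platelet isoform of phosphofructokinase, stood between 234 and 284 CPM over the first 4 libraries and at 93.1 CPM at 24 h. The difference was -1.50 (-1.55 to -1.45), and *Pfkp* overlaps *Pitrm1* on the other strand, whose reads went from 8359 to 9336. *Hk2*, hexokinase of the first glycolytic step, went from 252 to 133 CPM (-0.92, -0.96 to -0.87), and *Ldha*, *Eno1*, *Aldoa* and *Pgk1* differed by -0.39 to -0.64.

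Of 12 ATF4 stress and serine-synthesis genes, none was called, 10 had a negative difference and the median was -0.50. *Phgdh*, the entry enzyme of serine synthesis, was the serine enzyme with the largest difference, at 166 CPM at 10 h and 96.3 at 24 h (-0.78, -0.83 to -0.72), and *Chac1*, a glutathione-degrading enzyme induced by ATF4, differed by -0.84 (-0.98 to -0.69). Of 12 cholesterol-synthesis genes, none was called, 11 had a negative difference and the median was -0.46. *Lss*, lanosterol synthase, and *Idi1*, isopentenyl-diphosphate isomerase, differed by -0.64 (-0.69 to -0.60) and -0.62 (-0.67 to -0.57). The same list had medians of 0.04 between 0 h and 6 h and 0.14 between 6 h and 10 h.

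Cell-cycle genes had a median of -0.03 (0.01 under total-count scaling), with 1 of 15 called (6.67%, beside 2.71% of all genes). That gene was *Mycn*, the MYC paralogue that ESCs use, at 57.1, 40.2 and 19.3 CPM at 0, 10 and 24 h, a difference of -1.02 (-1.14 to -0.91). Its call was lost under total-count scaling (-0.985) and with a 5 CPM pseudocount (-0.898). *Ccnb1*, *Ccna2* and *Top2a*, which peak in G2, differed by -0.59, -0.47 and -0.48, while *Mki67* differed by 0.02 (-0.01 to 0.05). None of 14 p53 targets was called and their median was 0.33. *Fas*, the death receptor, and *Trp53inp1*, a pro-apoptotic target, had the largest differences, 0.85 (0.54 to 1.11) and 0.65 (0.62 to 0.68), and *Cdkn1a* differed by -0.29 (-0.33 to -0.25). None of 9 DNA methylation writers and erasers was called (median -0.15), and *Tet1*, a 5-methylcytosine dioxygenase, and *Dnmt3a*, a de novo methyltransferase, had the largest differences at -0.53 (-0.57 to -0.49) and 0.33 (0.25 to 0.40).

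Signalling readouts had single calls. Of 8 compared Wnt targets, *Rnf43* rose (12.5%, beside 1.56% of all genes) and the median was 0.32. *Rnf43*, a ubiquitin ligase that removes Wnt receptors, was at 1.71 CPM at 10 h and 4.73 at 24 h, a difference of 1.08 (0.81 to 1.35), and *Axin2*, a negative-feedback scaffold, went from 92 to 132 CPM (0.51, 0.45 to 0.57). Of 8 LIF-STAT3 and BMP-Id genes, 1 rose (12.5%, beside 1.56% of all genes). It was *Id1*, a dominant-negative helix-loop-helix protein induced by BMP, which went from 1.20 to 4.54 CPM, a difference of 1.34 (1.05 to 1.60). *Socs3*, the feedback inhibitor of STAT3, differed by -0.26 (-0.32 to -0.21). None of 8 ERK response genes was called, and all 8 had a negative difference (median -0.30). *Etv4* and *Etv5*, ETS factors downstream of FGF receptors, differed by -0.97 (-1.06 to -0.88) and -0.73 (-0.76 to -0.69) and *Spry4* by -0.67 (-0.95 to -0.36), in medium that holds the MEK inhibitor PD03 throughout.

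In 4 lists of other lineages, 1 of 26 genes compared was called (3.85%, beside 2.71% of all genes). Of 14 primitive endoderm genes, 9 were compared and *Dab2*, an endocytic adaptor, rose from 3.98 to 11.4 CPM (1.31, 1.10 to 1.53), while *Gata6*, a GATA factor that specifies this lineage, went from 12.6 to 20.1 CPM (0.63, 0.48 to 0.77). *Gata4* was at 3.15 and 3.22 CPM, *Sox17* was under 1 CPM and *Sox7* had 0 and 2 reads. None of the 8 compared formative and primed genes was called (median -0.24), with *Etv4* furthest from 0 at -0.97. *Fgf5*, the primed-state marker, had 0 reads at both times. None of 6 compared mesoderm and neural genes was called (median -0.06), *Sox1* and *Pax6*, both neural factors, lying on opposite sides at -0.93 (-1.19 to -0.66) and 0.86 (0.67 to 1.05). Of the fibroblast and blood list, 3 of 8 were compared and none was called, with *Col1a1* (-0.72, -1.0 to -0.41) and *Pdgfrb* (-0.51, -0.60 to -0.42) furthest from 0 and a median of -0.51.

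Of 8 germline genes, 7 were compared and 2 rose (28.6%, beside 1.56% of all genes), with a median of 0.78. They were *Slc25a31*, a testis ADP/ATP carrier, and *Taf7l*, a testis TFIID subunit. *Slc25a31* was at 5.76 CPM at 10 h and 14.9 at 24 h, a difference of 1.24 (1.05 to 1.43), and *Taf7l* at 6.15 and 13.4 CPM, a difference of 1.01 (0.82 to 1.19). *Mael*, a piRNA-pathway protein, lay just under the threshold at 0.99 (0.81 to 1.18). All 5 compared genes of the 2-cell-like state, a rare transient state of ESC cultures, had a negative difference, with a median of -0.86. *Usp17lc*, a deubiquitinase of that state, was the only 1 of the 5 that fell, beside 1.16% of all genes. It was at 4.15 and 1.53 CPM, a difference of -1.02 (-1.29 to -0.75). *Zscan4c*, a telomere-associated zinc-finger gene, went from 26.7 to 14.1 CPM (-0.87, -1.0 to -0.74). These families have near-identical copies, so single members are uncertain.

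CreER cells offered a replicated late step, 36 h against 24 h in 4OHT, that shares no library with O4AID. In CreER 1542 of 18969 genes tested were higher (8.13%) and 1243 were lower (6.55%) at an adjusted p under 0.05 (edgeR quasi-likelihood test with Benjamini-Hochberg adjustment). Of the 215 O4AID rises, 193 were tested in CreER, where 55 were higher (28.5%) and 17 lower (8.81%). Of the 160 falls, 141 were tested, where 30 were lower (21.3%) and 12 higher (8.51%). The 55 and 30 shared genes were 3.57% and 2.41% of the CreER genes called in those directions. The CreER log2 fold changes were small, with a median of 0.22 for the O4AID rises and -0.09 for the falls, and the 2 steps differ in agent, strain, route and hours. The transcript *mt-Rnr2* took 8.14 and 8.72% of reads in the CreER libraries at 24 h and 12.1 and 14.7% at 36 h, and its part in these results was not tested. *Pou5f1* itself was at 137 and 137 CPM at 24 h and 115 and 127 CPM at 36 h (-0.18, adjusted p = 0.00888 by edgeR, not passed under 3 of 9 alternatives).

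**Figure D5:**
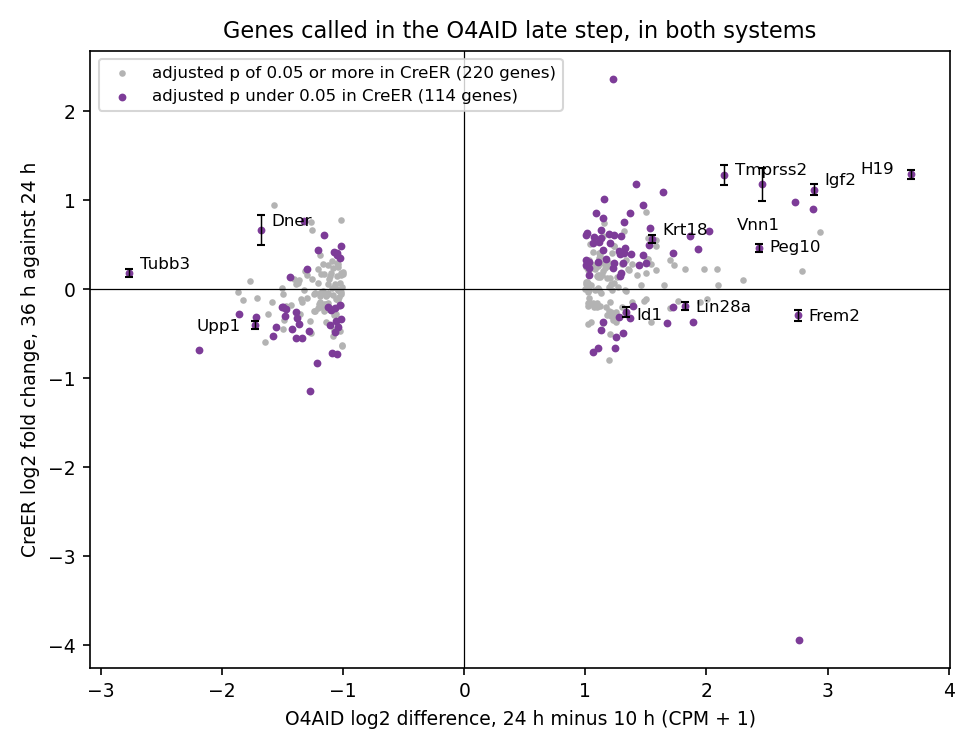
CreER log2 fold change, 36 h against 24 h (vertical axis; bars on labelled genes are ± 1 SE, 2 replicates a time), against the O4AID late difference (horizontal axis) for the 334 called genes that were tested in CreER. The 114 purple points passed an adjusted p under 0.05 in CreER, the labelled *H19* and *Igf2* are high in both, *Frem2* and *Lin28a* lie at 2.75 and 1.82 in O4AID and at -0.29 and -0.18 in CreER, and the lowest point, at -3.94, is the rRNA entry *CT010467.1*.

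Placental, imprinted and keratin genes called in O4AID included some that passed in the same direction in CreER. There, *H19* changed by 1.29 (SE 0.05, adjusted p = 9.88e-16 by edgeR), *Igf2* by 1.12 (SE 0.06, adjusted p = 1.12e-12) and *Peg10* by 0.47 (SE 0.04, adjusted p = 1.12e-08). *Rhox6* changed by 0.98 (SE 0.07, adjusted p = 4.29e-10), *Tmprss2* by 1.29 (SE 0.12, adjusted p = 7.62e-09) and *Krt18* by 0.56 (SE 0.04, adjusted p = 4.49e-10). Levels differed, however: *H19* was at 378 and 367 CPM in the CreER libraries at 24 h, beside 79.8 CPM at 24 h in O4AID. Of 16 trophectoderm factors tested in CreER, 12 were higher and none lower, beside 8.13% and 6.55% of all genes tested there. *Cdx2* was higher by 1.42 and *Hand1* by 1.23. *Upp1*, which fell in O4AID, was also lower in CreER (-0.40, SE 0.04, adjusted p = 3.32e-07).

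Pluripotency genes that fell late in O4AID had these values in CreER. *Esrrb* differed by -0.10 (SE 0.05, adjusted p = 0.187), which did not pass, and *Zfp42* by -0.23 (adjusted p = 0.000209). Of the 13 naive factors in CreER, 4 were lower and 2 higher, and of the 14 effectors 7 were lower and 1 higher. Of all genes tested there, 6.55% were lower and 8.13% higher. *Nanog* and *Tfcp2l1* were the 2 naive factors higher in CreER, by 0.18 (adjusted p = 0.00102) and 0.38 (adjusted p = 4.88e-06). The difference between the systems was not tested for any gene.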

How the data were processed

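Per the labels and methods, the authors depleted ribosomal RNA, made directional RNA-seq libraries, trimmed reads with Trim Galore, aligned them to GRCm38 (mm10) with TopHat2 2.1.0 and counted them with featureCounts 1.5.1, whose strand and multimapping settings are not given in the sources used here. The deposited files hold raw read counts per gene, 48801 entries each, of which 92 spike-ins held 0 reads and were left out. A deposited normalised table was not used.

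O4AID counts were scaled by TMM over the 5 libraries (edgeR 4.0.16, R 4.3.3) and compared in Python as log2 ratios of CPM + 1 with 95% Clopper-Pearson intervals, which cover counting error only. Genes had to reach a mean of 1 CPM, and calls 2-fold with an interval clear of 0. The study's NOISeq-sim was not used, because it simulates replicates. CreER counts (21.7 to 30.8 M reads) were tested with edgeR's quasi-likelihood method over all 10 libraries, contrasting 36 h with 24 h, with Benjamini-Hochberg adjustment over 18969 genes. Nothing in the sources says that the CreER replicates came from separate cultures, so p-values measure the spread between those libraries. Both procedures were run on simulated data. The O4AID simulation held counting error only and planted changes larger than the 2-fold rule, so it cannot speak to the spread between cultures.

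Named genes were *Pou5f1*, the 12 largest rises and 12 largest falls among called protein-coding genes with a mean of at least 50 counts, called members of 23 gene lists, the 2 members furthest from 0 in lists with under 2 calls, and the largest non-coding rise and fall. Others were named after their values were seen, and the values of a few genes are not reported here. The comparison and the lists were chosen with earlier results of these data known. Promoter windows came from RefSeq (GRCm38.p6), matched by symbol for 10160 of 13815 genes. Alternatives covered scaling, pseudocount, filter, fold threshold, the 6 h reference, protein-coding genes alone, DESeq2 1.42.0, a replicate block and leaving out replicates.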

Additional observations from a re-analysis of the deposited data

Results flagged for a closer look

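Named genes that were called in the O4AID late step, and whose CreER libraries at 36 h all lay on the opposite side of both 24 h libraries at an adjusted p under 0.05 (edgeR), were singled out. *Frem2* differed by 2.75 in O4AID and -0.29 in CreER, *Lin28a* by 1.82 and -0.18, and *Id1* by 1.34 and -0.25. *Tubb3* differed by -2.77 in O4AID and 0.18 in CreER, *Dner* by -1.68 and 0.67, *Pecam1* by -1.44 and 0.14, and *Usp17lc* by -1.02 and 0.49. The difference between the systems was not tested, since O4AID has 1 library a time, and the hours compared differ. Levels differed as well: *Lin28a* was at 44.4 CPM at 24 h in O4AID and at 443 to 490 CPM at 36 h in CreER, and *Tubb3* was at 3.71 CPM at 24 h in O4AID and at 202 to 222 CPM at 36 h in CreER. The CreER calls of *Frem2* and *Id1* were lost under 1 alternative each, of *Lin28a* and *Tubb3* under 2, of *Dner* under 3 and of *Pecam1* under 8 of 9.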

How the results depend on the processing

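The O4AID count of 375 (215 higher, 160 lower) became 378 under RLE, 381 under total-count scaling and 380 with TMM over the 10 h and 24 h libraries alone, 379 with no filter and 351 with protein-coding genes alone. It moved to 705 (398 higher, 307 lower) with a pseudocount of 0.1 CPM, 102 (62 and 40) with 5 CPM, 143 (80 and 63) with a mean of at least 10 CPM, 1518 (830 and 688) at 1.5-fold and 24 (20 and 4) at 4-fold. Against the 6 h library it was 667 (381 and 286), of which 332 were among the 375 in the same direction. None of 51 named O4AID values changed sign under 6 alternatives each, but 105 of the 306 values moved beyond their counting interval, as did 70 of 230 counts of list members called beyond 1.5 times. With pseudocounts of 0.1 and 5 CPM, *Dkk1* was 5.11 and 1.30 and *C3* 4.24 and 1.01. Of 50 named calls, 15 were lost with 5 CPM (*Aox3*, *Nr0b1*, *Tcl1*, *Gata2*, *Krt7*, *Krt8*, *Krt19*, *Dab2*, *Mycn*, *Phlda2*, *Rnf43*, *Id1*, *Taf7l*, *Slc25a31* and *Usp17lc*), 2 under total-count scaling (*Atp1b1*, *Mycn*) and 2 against the 6 h library (*Atp1b1*, *Rnf43*). The median of 1 list, cell cycle, changed sign, under total-count scaling. The CreER count of 2785 was 1606 with DESeq2, 2750 under RLE, 2828 with no filter and 2431 with the 24 h and 36 h libraries alone. It ranged from 1491 to 2194 when 1 library was left out, 1540 and 1491 without replicate 1 or 2 at 24 h, where the lone sample is assumed to vary like the others; the cause was not tested. A replicate block gave 2813, of which 2728 were among the 2785. Same-numbered CreER libraries deviated together with a correlation of only -0.02 to 0.05 over 10 pairs of times. No shift shared by number was thus seen, which cannot show whether same-numbered samples were prepared together. Of 297 alternative values for 33 named CreER genes, 254 stayed past the threshold and none changed sign. Depth limits the O4AID intervals, whose median half-width among calls was 0.215, and 1 library a time leaves the spread between cultures unmeasured.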

Other observations

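Genes known to be induced by interferon were listed after their values were seen, so their counts describe that choice and support nothing. Of 21 such genes, 17 were compared and 7 rose, beside 1.56% of all genes compared, and *Psmb9* passed the filter only through the 24 h library. *Parp14*, an ADP-ribosyltransferase, was at 2.63, 3.11, 2.45, 2.42 and 9.92 CPM at 0, 1.5, 6, 10 and 24 h. *Ddx58*, the RNA sensor RIG-I, was at 11.7, 10.8, 10.5, 10.7 and 29.2 CPM, and *Ifih1*, the sensor MDA5, was at 2.54 CPM at 10 h and 9.0 at 24 h. The first 4 libraries of *Parp14* and *Ddx58* lay close together and the 24 h library alone was high.

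The peptide transporters *Tap1* and *Tap2*, which load MHC class I, differed by 1.59 (1.45 to 1.73) and 1.25 (0.97 to 1.52), the immunoproteasome subunit *Psmb9*, which overlaps *Tap1* on the other strand, by 1.03 (0.73 to 1.30), and the class I gene *H2-D1* by 1.02 (0.83 to 1.20). *Isg15* had 8 reads at 10 h and 38 at 24 h, and *Ifit1* and *Ifit3*, strongly interferon-dependent genes, had at most 6 reads at either time. Of 11 guanylate-binding protein genes, also listed after their values were seen, *Gbp2*, *Gbp2b* and *Gbp7* passed the filter, *Gbp2b* and *Gbp7* only through the 24 h library. *Gbp7* was at 0.611 CPM at 10 h and 5.46 at 24 h. In CreER, 36 h against 24 h, 19 of the interferon-induced genes were tested at an adjusted p under 0.05 (edgeR). None was higher and 4 were lower, beside 8.13% and 6.55% of all genes tested there. *Ddx58* was lower by -0.33 and *Irf1* by -0.46, and none of the 6 guanylate-binding protein genes tested passed.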
